A study of Mus musculus with 54 samples.

Results

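Intestinal adenomas of C5 mice were compared with adenomas of B6 mice by sequencing methylated DNA. The 3 C5 adenoma libraries and 5 B6 adenoma libraries were taken by strain and tissue label and make up 8 of the 46 libraries analysed here, from a series of 54 labelled samples. B6 mice are C57BL/6, and C5 mice are C57BL/6 with chromosome 5 taken from PWD/Ph (PWD), a strain derived from another mouse subspecies. All adenomas came from mice with the Apc Min allele, which truncates the tumour suppressor Apc and gives rise to intestinal adenomas, so the controls carried it too. For comparison, normal intestinal mucosa of Apc Min mice (3 C5 and 3 B6 libraries) and mucosa of wild type mice with intact Apc (3 C5, 4 B6 and 3 PWD libraries) were used. All mice were 15 to 19 weeks old, and the labels give no animal, sex or substrain for a library. The samples are named by the numbers in their labels: 12_3, 12_5 and 16_3 for C5 adenomas, and 10_2, 2_1, 4_1, 4_2 and 9_3A for B6 adenomas. The question was which methylation differences between the strains lie on the exchanged chromosome, which lie elsewhere, and which are also present in normal mucosa.

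Methylation of cytosine in CG dinucleotides is copied to daughter cells, and at CpG islands near gene starts it usually accompanies silencing. In the intestine, methylation patterns differ between cell types, and adenomas arising from the epithelium often gain methylation at some islands and lose it in CpG-poor DNA. Sequence differences between mouse strains also give inherited methylation differences, because the DNA sequence in part determines where methylation is placed. Methylated DNA immunoprecipitation (MeDIP) captures fragments with an antibody against 5-methylcytosine, so the number of fragments from a place rises with methylation and with the number of CG sites there. In a bulk sample, fewer cells with a methylated site and less methylation per cell cannot be told apart. A window's count also depends on whether the strain's sequence holds the CG sites and aligns to mm10, a reference built from B6, and in these tables this cannot be told apart from methylation.

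Differences described below lie at or beside the following promoters, shown from 5′ to 3′ on the gene's strand with every CG, the site of methylation, in capitals. They come from the RefSeq promoter table of GRCm38.p6, the same build as mm10, and give the reference sequence, which is that of B6. The first lies between Mvk and Mmab, which are transcribed away from each other, and is written on the strand of Mvk (chr5:114444074-114444263, plus strand). It holds 5 CG in 190 bases. That of Vamp9 (chr5:99906015-99906241, plus strand, 8 CG) is also on chromosome 5, and those of 2310057M21Rik (chr7:131362844-131362976, minus strand, 14 CG) and Cisd1 (chr10:71344850-71345099, minus strand, 30 CG) are not.
Mvk: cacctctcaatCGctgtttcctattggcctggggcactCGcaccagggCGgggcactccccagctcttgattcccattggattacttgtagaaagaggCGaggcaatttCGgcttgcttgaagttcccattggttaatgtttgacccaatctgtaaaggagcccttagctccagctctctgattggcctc
Vamp9: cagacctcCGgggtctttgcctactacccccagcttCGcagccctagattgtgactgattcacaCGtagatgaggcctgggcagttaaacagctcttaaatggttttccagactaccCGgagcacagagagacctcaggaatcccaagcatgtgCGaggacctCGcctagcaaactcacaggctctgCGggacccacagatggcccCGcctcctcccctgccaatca
2310057M21Rik: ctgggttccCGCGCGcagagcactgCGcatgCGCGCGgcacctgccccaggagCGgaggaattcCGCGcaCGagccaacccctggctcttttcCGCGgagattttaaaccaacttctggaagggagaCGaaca
Cisd1: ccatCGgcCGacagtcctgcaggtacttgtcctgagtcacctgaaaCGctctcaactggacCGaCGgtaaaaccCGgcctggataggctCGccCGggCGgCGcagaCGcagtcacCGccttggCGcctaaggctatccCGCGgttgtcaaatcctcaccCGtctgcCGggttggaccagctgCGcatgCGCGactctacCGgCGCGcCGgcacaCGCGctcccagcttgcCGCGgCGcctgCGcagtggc

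Among 31396 promoter sequences of the table cut to the same length, 6.12% held as many CG as Cisd1, 8.0% as many as 2310057M21Rik, 40.1% as many as Vamp9 and 50.1% as many as Mvk. These promoters thus ranged from CpG-rich to ordinary in CG number. The counts come in windows of 250 bp, so capture is known for the windows that overlap a sequence and not for its bases alone. The 2 windows over the Mvk sequence held 0 counts in all 5 B6 adenomas and 155, 80 and 52 counts in C5 12_3, 12_5 and 16_3, and both were called higher in C5. The window over the 2310057M21Rik sequence held 1 count in all B6 adenomas and 5, 6 and 7 in the C5 adenomas. It was called in adenomas (4.19 on the log2 scale, adjusted p = 0.00225) and not in normal mucosa (adjusted p = 0.123). Of the 2 windows over the Cisd1 sequence, chr10:71344751-71345000 was called in both tissues (5.52 and 6.30), and the other had too few counts to be tested, as had the window over the Vamp9 sequence, with 18 counts in the B6 and 3 in the C5 adenomas. Most of the counts behind the Vamp9, 2310057M21Rik and Cisd1 values given further on thus lie beside these sequences, within the gene ends. Of genes named further on whose promoters are not shown, the window over that of Mrpl51 held 0 counts in the B6 and 3 in the C5 adenomas. The window over the promoter of Osbpl8 held 0 in both.

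No 2 libraries held identical values. Library totals were 19406298 to 23094560 counts in C5 adenomas, 15023537 to 22588126 in B6 adenomas, 20063745 to 24158323 in C5 normal mucosa and 19414849 to 27842607 in B6 normal mucosa. Levels are given as CPM, the count scaled to a library's adjusted autosomal total, and differences as log2 of C5 over B6 with a standard error (SE) from edgeR. C5 adenomas carried sample labels whose first number was 12 or 16 and B6 adenomas 2, 4, 9 or 10, so that number and the strain cannot be told apart within adenomas. The p-values measure the spread between samples, which may in part be technical. The tissue label could not be checked, since captured DNA at the gene ends of marker genes does not measure expression.

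Chromosome 5 held most of the difference between the 2 kinds of adenoma. Of 62272 windows of 250 bp tested on chromosome 5, 6132 were called at an adjusted p of 0.05 (9.85%), of which 3068 were higher in C5 (4.93%) and 3064 lower (4.92%). On the other autosomes 1361 of 1109797 windows were called (0.123%), 893 higher (0.0805%) and 468 lower (0.0422%). Single chromosomes other than 5 ran from 0.08% to 0.18%. In normal mucosa, the same contrast called 4328 windows on chromosome 5 (6.95%), 2039 higher (3.27%) and 2289 lower (3.68%). Elsewhere it called 746 (0.0672%), 659 higher (0.0594%) and 87 lower (0.00784%). When the model also held a term for the first label number, 284 windows on chromosome 5 and 11 elsewhere were called in adenomas, and 280 and 7 of these were among the calls without it. Of the B6 libraries only wild type 16_8 shares a first number with any C5 library, so that model links the strains through it alone. What the fall in calls came from was not tested. The counts also rested on single libraries: chromosome 5 had 3840 calls without C5 12_5 and 4066 without C5 12_3, and the other autosomes had 567 without C5 12_5, 703 without C5 16_3 and 845 without B6 4_2.

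**Figure D1:**
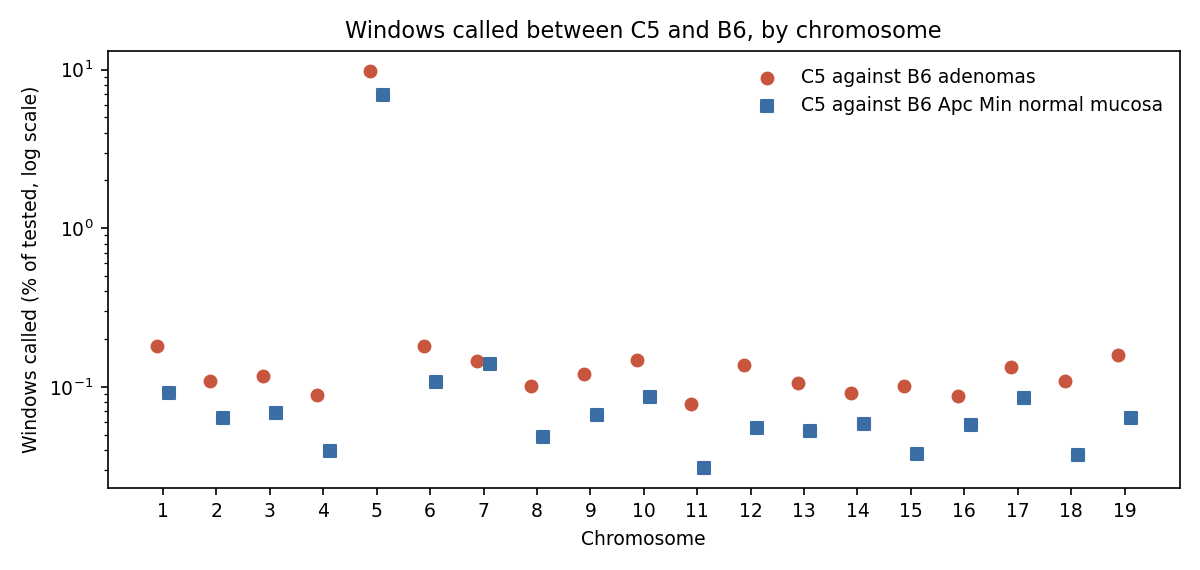
Percent of tested windows called (adjusted p of 0.05, edgeR) between C5 and B6 on each autosome, on a log axis, for adenomas and for normal mucosa of Apc Min mice. Chromosome 5 stands at 9.85% in adenomas and 6.95% in normal mucosa, and the other autosomes lie near 0.1%.

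C5 adenomas lay close to PWD along the whole of chromosome 5. Each library was placed on a scale on which B6 wild type mucosa is 0% and PWD wild type mucosa 100%. It used chromosome 5 windows called and at least 2-fold apart between these groups, 7320 higher and 5086 lower in PWD. The same wild type libraries thus chose the windows and set both ends, which can draw all other libraries inward. How much of a library's distance from 0% or 100% came from this was not tested. C5 12_3 lay at 91.1%, C5 12_5 at 89.1% and C5 16_3 at 88.7%. B6 10_2 lay at 4.99%, 2_1 at 6.23%, 4_1 at 6.16%, 4_2 at 7.67% and 9_3A at 9.05%. The groups were thus far apart, 89.6 ± 1.28% (SD, n = 3) against 6.82 ± 1.57% (SD, n = 5), with an exact two-sided permutation p of 0.0179, the smallest that 3 against 5 libraries allow. Normal mucosa gave nearly the same means, 88.7% in C5 and 6.65% in B6, and C5 wild type mucosa lay at 93.7%. In 16 bins of 10 Mb, the C5 adenoma mean ran from 87.9% to 91.8% and the share of windows called from 8.18% to 13.6%. No stretch of 10 Mb in the table stood at the B6 level.

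Outside chromosome 5 the C5 adenomas stayed close to B6. The windows were chosen in the same way, with the same limit, and 75073 were higher and 137264 lower in PWD. Over these, C5 12_3 lay at 11.4%, C5 12_5 at 10.7% and C5 16_3 at 7.96%. B6 adenomas lay at 4.31% in 10_2, 6.53% in 2_1, 5.53% in 4_1, 6.66% in 4_2 and 7.48% in 9_3A. The groups did not overlap (10.0 ± 1.82%, n = 3, against 6.10 ± 1.22%, n = 5, exact two-sided permutation p = 0.0179), with C5 16_3 just above the highest B6 library. C5 normal mucosa lay at 10.5% and B6 normal mucosa at 6.18%. Adenomas of the C5F1 group, whose cross the labels do not spell out, lay at 49.3% on chromosome 5 and 10.6% elsewhere, while adenomas of the B6xPWD cross lay at 48% and 46%.

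**Figure D2:**
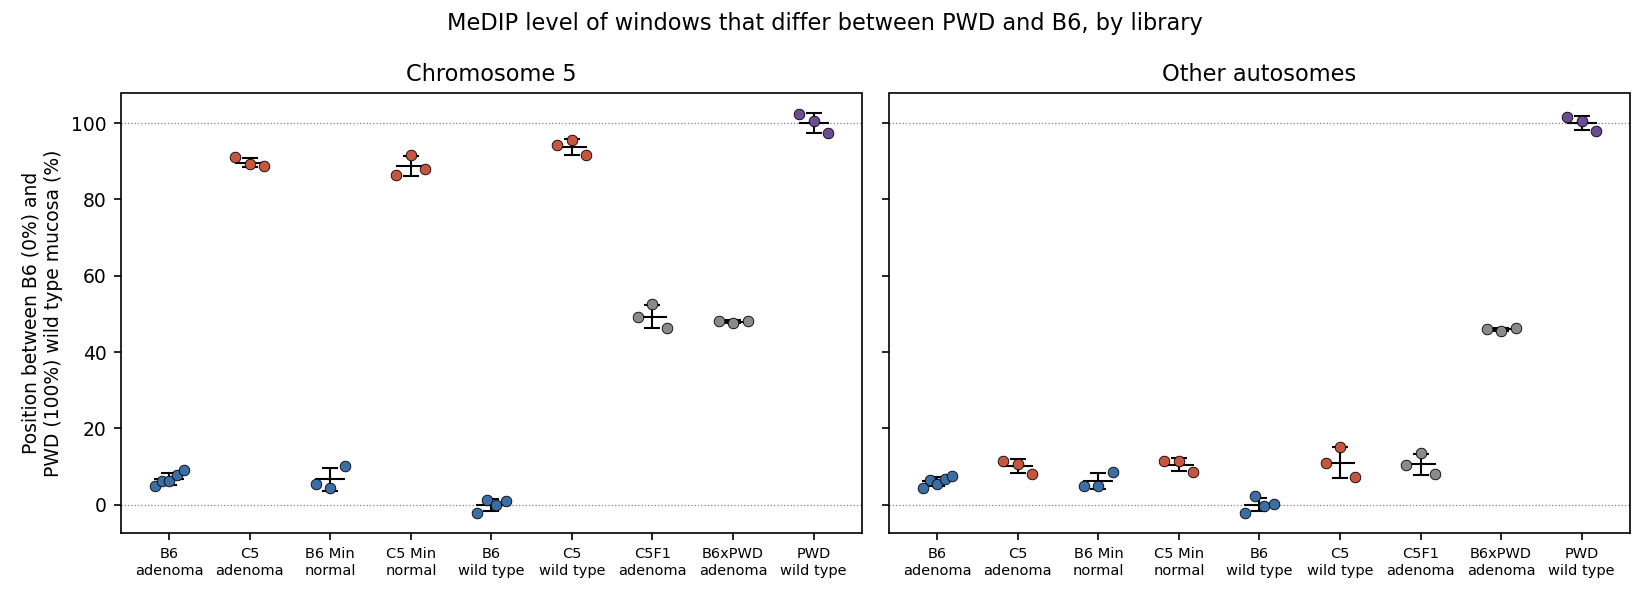
Position of each library (points; bars are the mean ± SD) between B6 wild type mucosa (0%) and PWD wild type mucosa (100%), for chromosome 5 and for the other autosomes. On chromosome 5 the C5 adenomas lie between 88.7% and 91.1% and the B6 adenomas between 4.99% and 9.05%. On the other autosomes C5 adenomas lie between 7.96% and 11.4%.

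Captured DNA summed over the called chromosome 5 windows showed the same order in adenomas and in mucosa. These windows were chosen by the adenoma contrast, so the adenoma sums are a description. Over the windows higher in C5 adenomas, the 5 B6 adenomas held 501 to 545 CPM and the 3 C5 adenomas 2175 to 2253 CPM. In normal mucosa, which did not choose them, B6 held 584 to 624 CPM and C5 1987 to 2082 CPM, and PWD wild type mucosa held 2314 to 2439 CPM. Over the windows lower in C5 adenomas, B6 adenomas held 2302 to 2492 CPM and C5 adenomas 537 to 614 CPM, against 2207 to 2306 and 626 to 755 CPM in normal mucosa. C5F1 adenomas stood between, at 1354 to 1362 CPM over the first set and 1355 to 1442 CPM over the second. The chromosome as a whole took 5.10 ± 0.152% of the counts in C5 adenomas and 5.23 ± 0.0784% in B6 adenomas (exact two-sided permutation p = 0.214).

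Many of the chromosome 5 differences were also called in normal mucosa. Of the 6132 windows called in adenomas, 3192 were called in normal mucosa with the same sign, which is 52.1% of the adenoma list and 73.8% of the normal mucosa list. By direction, 1545 of these were higher (50.4% and 75.8%) and 1647 lower (53.8% and 72.0%). Of all tested chromosome 5 windows, normal mucosa called 3.27% higher and 3.68% lower. The sign was the same in normal mucosa at 99.7% of the adenoma windows, and 91.7% had the same sign with an unadjusted p under 0.05. Over all autosomes, 82676 of 1172069 tested windows had an unadjusted edgeR p under 0.05 in normal mucosa, in either direction. The median difference of the higher windows was 2.24 in adenomas, 1.88 in normal mucosa and 1.91 in wild type mucosa, and of the lower windows -2.28, -1.88 and -2.05. Since adenomas chose the windows, a smaller median in mucosa is no sign of a smaller effect. PWD against B6 wild type mucosa, which called 13.2% of tested chromosome 5 windows as higher and 8.87% as lower, called 91.2% of the higher and 81.2% of the lower adenoma windows in the same direction.

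On the other autosomes the 2 tissues shared fewer calls. There, 207 of 1361 windows were called in both tissues with the same sign, 15.2% of the adenoma list and 27.7% of the normal mucosa list. Of these 194 were higher (21.7% and 29.4%) and 13 lower (2.78% and 14.9%). Normal mucosa called 0.0672% of all tested windows there, 0.0594% higher and 0.00784% lower, against 6.95% on chromosome 5. The shared part was thus smaller than on chromosome 5, but calls in normal mucosa were also far rarer. The 893 higher windows had medians of 1.89 in adenomas, 0.91 in normal mucosa and 0.71 in wild type mucosa, with the same sign in normal mucosa at 91.7% and an unadjusted p under 0.05 at 51.6%. The 468 lower windows had medians of -1.85, -0.29 and -0.17, with the same sign at 76.9% and an unadjusted p under 0.05 at 9.40%. The adenoma difference also sorts these windows by size, so the shares that follow are a description. Among the 129 windows over 16-fold higher, 84.5% were called in normal mucosa, and their medians were 5.52, 5.74 and 6.26 in adenomas, normal and wild type mucosa. Among the 764 with smaller differences, 11.1% were called in normal mucosa, and the medians were 1.78, 0.75 and 0.58. The same division of the higher chromosome 5 windows gave 82.5% and 47.5%.

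**Figure D3:**
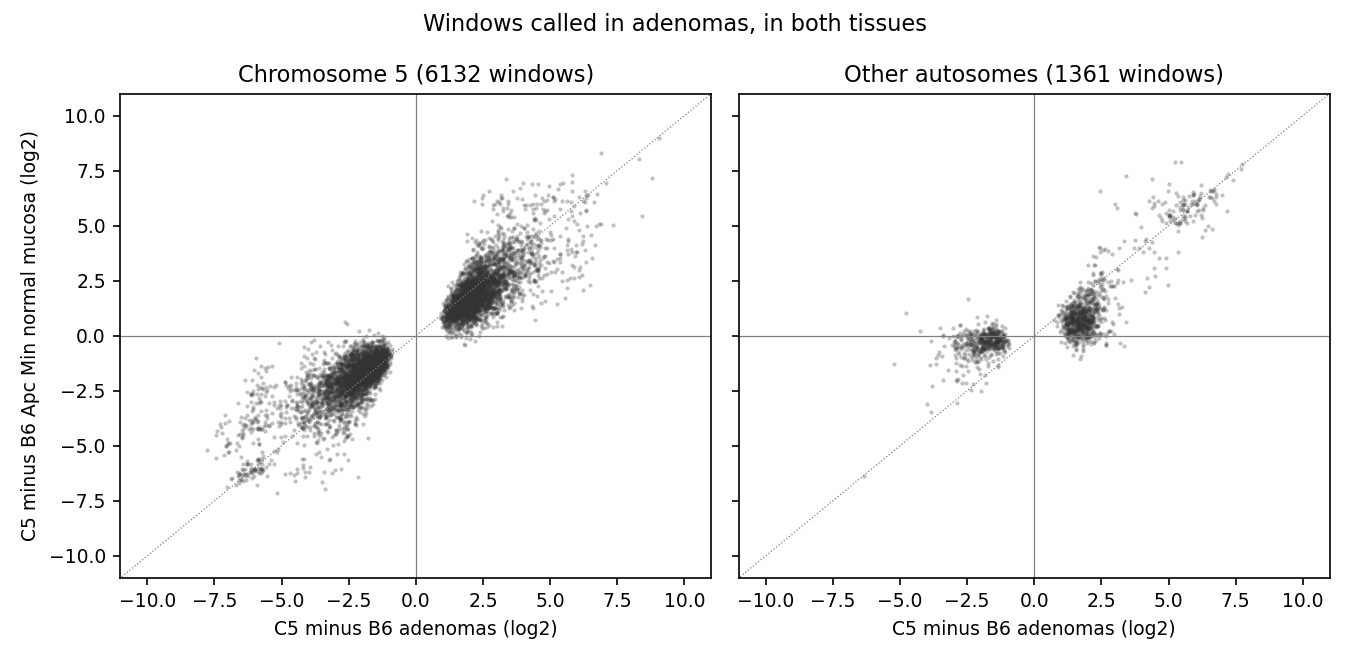
Log2 difference between C5 and B6 in adenomas (x axis) and in normal mucosa of Apc Min mice (y axis) for the windows called in adenomas, on chromosome 5 and on the other autosomes. On chromosome 5, 99.7% of the windows have the same sign in both. On the other autosomes the lower windows lie near 0 in normal mucosa, with a median of -0.29.

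No difference was shown to belong to adenomas only. The difference of differences (C5 minus B6 in adenomas, less C5 minus B6 in normal mucosa) was called by edgeR at 0 of 1172069 windows, and 41005 windows (3.50%) had an unadjusted p under 0.05. At gene ends it was called at 0 of 12582, with 436 (3.47%) at an unadjusted p under 0.05. The 2940 windows on chromosome 5 and 1154 elsewhere that were called in adenomas and not in normal mucosa are therefore not told apart from differences present in both. The SE of this contrast ran from 0.28 at Trrap to 1.75 at Thegl among the named chromosome 5 gene ends. It is not known whether an adenoma and a normal mucosa library came from the same mouse.

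At gene ends, each the CpG-richer end of a coding gene from 1000 bp outside to 500 bp inside it, 45 of 720 were called on chromosome 5 in adenomas (6.25%), 22 higher in C5 (3.06%) and 23 lower (3.19%). Elsewhere 23 of 11862 were called (0.194%), 17 higher (0.143%) and 6 lower (0.0506%). In normal mucosa 21 were called on chromosome 5 (2.92%), 8 higher (1.11%) and 13 lower (1.81%), and 11 elsewhere (0.0927%), 10 higher (0.0843%) and 1 lower (0.00843%). On chromosome 5 19 were called in both tissues (42.2% of the adenoma list, 90.5% of the normal mucosa list), and elsewhere 10 (43.5% and 90.9%). All 68 had the same sign in normal mucosa. PWD against B6 called 19 of the 22 higher and 15 of the 23 lower ends on chromosome 5 in the same direction, where it called 9.03% and 5.56% of those tested. Elsewhere it called 14 of the 17 higher and 3 of the 6 lower ends, against 6.37% and 7.06% of those tested. Without C5 12_5, chromosome 5 had 22 calls and the rest 12, without C5 16_3 chromosome 5 had 28, and under the model with a label number term 4 and 1 were called.

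The chromosome 5 gain with the lowest p lay at the promoter shared by Mvk, the kinase that phosphorylates mevalonate on the route to cholesterol, and Mmab, an enzyme that converts vitamin B12 to its adenosyl form. At the Mmab end (chr5:114443574-114445073, its 5′ end) B6 adenomas held 0, 0, 0, 0.0518 and 0.0574 CPM (10_2, 2_1, 4_1, 4_2 and 9_3A, the order used below), and C5 adenomas held 14.1, 10.8 and 8.23 CPM (12_3, 12_5 and 16_3). Captured DNA was almost absent from B6 and present in each C5 library. The difference was 8.71 ± 0.41 (SE, adjusted p = 3.06e-28) in adenomas and 6.45 ± 0.38 in normal mucosa, and the Mvk end, which shares windows with it, gave 7.76 ± 0.39 and 5.92 ± 0.37. The window chr5:114443751-114444000, inside Mmab and 151 bp from its start, held 0 in all 5 B6 adenomas and 4.25, 3.23 and 2.14 CPM in C5, at least 106-fold higher with a floor of 3 counts over the B6 group. C5F1 adenomas held 1.58 to 2.00 CPM there and PWD wild type mucosa 5.52 to 6.58 CPM, so C5 adenomas lay between. C5 16_3 was the lowest of the 3 C5 libraries, and it also had the smallest share of counts in CpG-dense windows (given below), whose part in this was not tested. A second window in the body of Mmab, chr5:114432251-114432500, was 21.6-fold higher in C5 adenomas, at 1.05, 1.09 and 1.21 CPM against 0.0427 to 0.067 CPM in B6.

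The next gains on chromosome 5 by p included the ends of 5 genes of known function that were called in adenomas and not in normal mucosa. For all of them but Oas1h the CpG-richer end was the 3′ end, so that these values are not of promoters. Slc2a9, which carries urate and sugars across membranes (chr5:38348272-38349771), held 0.403, 0.319, 0.265, 0.104 and 0.287 CPM in B6 and 1.09, 1.56 and 1.07 CPM in C5. Its difference was 2.14 ± 0.33 (adjusted p = 1.21e-05) in adenomas and 1.04 ± 0.36 in normal mucosa, where it was not called (adjusted p = 0.461). Drd5, a dopamine receptor whose gene lies beside Slc2a9 (chr5:38322024-38323523), held 0.403, 0.765, 0.353, 0.467 and 0.574 CPM in B6 and 1.13, 1.70 and 1.19 CPM in C5, a difference of 1.42 ± 0.27 (0.00109) that was not called without C5 12_5. Its difference in normal mucosa was 1.00 ± 0.27 (edgeR adjusted p = 0.119). Taken over 2000 bp either side of the gene end, the Drd5 adenoma difference was 0.042 (edgeR adjusted p = 0.962). Every C5 library lay above every B6 library at both genes. Ap5z1, a subunit of the endosomal adaptor AP-5 (chr5:142478217-142479716), had 0.269, 0.128, 0.177, 0.207 and 0.115 CPM in B6 and 0.847, 0.729 and 1.07 CPM in C5. Usp46, a deubiquitinating enzyme (chr5:73997726-73999225), had 0.403, 0.383, 0.398, 0.311 and 0.230 CPM in B6 and 0.973 to 1.19 CPM in C5. Oas1h, of the oligoadenylate synthetase family that senses viral RNA (chr5:120860422-120861921), had 0.0638 to 0.363 CPM in B6 and 0.656 to 1.07 CPM in C5. These 3 differed by 2.20 ± 0.36, 1.57 ± 0.32 and 2.34 ± 0.43 in adenomas and by 1.34, 1.24 and 1.25 in normal mucosa. Their differences between the tissues had unadjusted p of 0.13, 0.495 and 0.112.

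The other 3 named gains were called in both tissues. Gm20385 had at most 0.0638 CPM in B6 adenomas and 0.565, 0.584 and 0.596 CPM in C5, with 3.63 ± 0.53 in adenomas and 4.82 ± 0.71 in normal mucosa. The differences of 1700018F24Rik were 2.35 ± 0.46 and 2.56 ± 0.53, and those of Tex47, a gene named for expression in testis, 1.93 ± 0.41 and 2.47 ± 0.47. The call of 1700018F24Rik in adenomas was lost without C5 12_5 and that of Tex47 without C5 16_3. A further 12 chromosome 5 gene ends were higher, by 0.86 to 2.21, of which 2 were called in normal mucosa and 9 in PWD with the same sign.

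Away from gene ends, the chromosome 5 gains named for the lowest p were as marked. At chr5:138610251-138610500 in Zfp68, a zinc finger gene, B6 adenomas held 0, 0, 0.0438, 0 and 0 CPM and C5 adenomas 1.54, 1.99 and 2.36 CPM. At chr5:21532251-21532500 in Fbxl13, an F-box gene, B6 held 0.0554 to 0.219 CPM and C5 1.40, 1.59 and 1.59 CPM, 11.4-fold more. A window 33 kb from Tbc1d1, a regulator of glucose transporter traffic, held 0 to 0.128 CPM in B6 and 1.36, 1.09 and 1.37 CPM in C5 (chr5:64384501-64384750). The B6 libraries were at or near 0 at each of these.

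Losses on chromosome 5 reached 0 in C5 at several places. Rnf212, needed for meiotic crossovers, held 6.27, 6.83, 6.89, 6.32 and 5.74 CPM at its 5′ end (chr5:108774568-108776067) in B6 adenomas and 2.58, 2.24 and 1.13 CPM in C5. The difference was -1.65 ± 0.24 (adjusted p = 2.68e-06) in adenomas and -1.56 ± 0.25 (7.99e-05) in normal mucosa, and C5 16_3 was again the lowest library. Between PWD and B6 wild type mucosa the Rnf212 end differed by -0.55 (0.0914) and was not called. Trrap, the scaffold of several histone acetyltransferase complexes (chr5:144859279-144860778), held 5.38, 4.72, 4.06, 4.46 and 3.90 CPM in B6 and 1.98, 2.24 and 1.43 CPM in C5, with -1.24 ± 0.18 in adenomas and -1.05 ± 0.20 in normal mucosa. This is the 3′ end of Trrap, and at its 5′ end the adenoma difference was 1.10, called in the other direction (adjusted p = 0.0192). The 2 ends of Trrap thus moved opposite ways.

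Abcb4, the transporter that moves phospholipid into bile, held at its 3′ end (chr5:8958727-8960226) 1.17, 1.47, 1.63, 1.19 and 1.03 CPM in B6 adenomas and 0.323, 0.340 and 0.716 CPM in C5, with -1.56 ± 0.28 (adjusted p = 0.000375) in adenomas and -1.94 ± 0.33 in normal mucosa. Vamp9, of the vesicle fusion protein family by name (chr5:99905242-99906741), held 0.344 to 1.17 CPM in B6 and 0.0807, 0.0486 and 0 CPM in C5 around the promoter shown above, with -3.71 ± 0.62 and -4.78 ± 0.81. Thegl (chr5:77015023-77016522) held 0.255 to 0.726 CPM in B6 adenomas and 0 in all 3 C5 adenomas, at least 9.997-fold lower. Gm21663 (chr5:25941867-25943366) held 0.319 to 0.778 CPM in B6 and 0 in C5, at least 11.7-fold lower. Both were also called in normal mucosa, as were Tmem233 (-2.31 in adenomas), Zar1l (-1.25), the actin regulator Cracd (-2.73) and the ribosomal protein gene Rpl21 (-1.97). The calls of Zar1l and Rpl21 were lost without C5 16_3 and that of Cracd without C5 12_3 or 12_5, and DESeq2 called neither Cracd nor Rpl21. Rpl21 has many near-identical copies in the genome, among which reads can be split. A further 13 chromosome 5 gene ends were lower, by -0.89 to -3.96, of which 2 were called in normal mucosa and 6 in PWD.

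Among single windows, the losses named for the lowest p included several with almost no counts in C5. In Otof, which encodes the synaptic protein otoferlin, chr5:30426751-30427000 held 0.998 to 1.83 CPM in B6 adenomas and 0, 0.0497 and 0 CPM in C5. In Auts2, a regulator of neural development, chr5:131875251-131875500 held 0.804 to 1.46 CPM in B6 and 0.0439, 0 and 0.055 CPM in C5. A window 16 kb from Rxfp2, a relaxin family receptor, held 1.66 to 2.08 CPM in B6 and 0.0877, 0.149 and 0 CPM in C5 (chr5:150099001-150099250). A window 54 kb from Lhx5, a homeobox gene, held 1.36 to 2.24 CPM in B6 and 0.0439, 0.199 and 0.055 CPM in C5 (chr5:120378001-120378250). The 3 C5 libraries lay near 0 at each, and the groups did not overlap. Nor did they overlap at 2993 of all 3064 lower chromosome 5 windows, which the same adenoma values chose, so this is a description.

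By CpG content, gains and losses on chromosome 5 separated. Windows with a deposited CpG density score under 2 were higher in C5 adenomas at 8.98% and lower at 1.19%. From a score of 10 to 15 the shares were 1.76% and 6.21%, and at 15 or more 3.77% and 5.90%. Gains were thus most frequent in CpG-poor DNA and losses in CpG-richer DNA. The median difference over all tested windows moved in the same direction, from 0.36 under 2 to -0.29 at 15 or more on chromosome 5 and from 0.23 to -0.30 on the other autosomes, as did the capture of CpG-dense DNA by library (given below), whose part in these shares was not tested. Called windows had a median score of 3.74 in the higher and 5.62 in the lower windows, against 5.06 in all tested windows of the chromosome. Gene bodies held 54.9% of the higher and 59.5% of the lower windows, against 60.6% of those tested. In 193 of the lower windows (6.30%) all C5 adenomas had 0 counts, and in 70 of the higher windows (2.28%) all B6 adenomas did. These 2 shares cannot be set against each other, since 0 in all of 3 libraries is reached more easily than in all of 5.

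Outside chromosome 5, 5 of the 6 named gains at gene ends lay in CpG-dense regions, with mean scores of 17.1 to 20.2, and that of Cx3cr1 (described below) at 4.04. Each was the 5′ end. Around the promoter of Cisd1, an iron-sulfur protein of the mitochondrial outer membrane (chr10:71344350-71345849), B6 adenomas held 0.359, 0, 0.177, 0.207 and 0.172 CPM and C5 adenomas 1.74, 1.99 and 1.07 CPM. Its difference was 3.03 ± 0.33 (adjusted p = 1.00e-09) in adenomas, 3.21 ± 0.36 in normal mucosa and 4.03 ± 0.37 in PWD. One window of it, chr10:71344501-71344750, had 0 counts in every B6 adenoma and 1.49, 1.59 and 0.660 CPM in C5, at least 41.3-fold more. Romo1, a protein of the mitochondrial inner membrane, and Nfs1, the enzyme that supplies sulfur for iron-sulfur clusters, share windows on chromosome 2. The Romo1 end (chr2:156143153-156144652) held 0.0896, 0.191, 0.0442, 0.311 and 0 CPM in B6 and 2.22, 2.09 and 1.13 CPM in C5, with 3.85 ± 0.40 in adenomas and 3.99 ± 0.45 in normal mucosa. The Nfs1 end gave 3.99 ± 0.48 and 4.25 ± 0.51. At 2310057M21Rik (chr7:131362344-131363843) B6 held 0.224, 0.128, 0.221, 0.311 and 0.0574 CPM and C5 2.42, 2.58 and 1.97 CPM, with 3.54 ± 0.33 and 3.47 ± 0.34. All of these were called between PWD and B6 as well, and each C5 library stood above all B6 libraries. A window in a (agouti), the coat colour gene, held 0, 0.067, 0, 0.111 and 0 CPM in B6 adenomas and 1.05, 0.945 and 0.879 CPM in C5 (chr2:155018251-155018500), with 4.71 ± 0.55 in adenomas and 5.33 ± 0.72 in normal mucosa.

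Mrpl51, a protein of the large mitochondrial ribosomal subunit (chr6:125191200-125192699), differed more in adenomas than in normal mucosa by value, though not by the adjusted test. B6 adenomas held 0, 0, 0.0442, 0.104 and 0.0574 CPM and C5 adenomas 0.807, 1.22 and 0.835 CPM, with 4.34 ± 0.57 (adjusted p = 1.91e-07). In normal mucosa B6 held 0.259, 0.0376 and 0.284 CPM and C5 0.789, 0.773 and 0.340 CPM, with 1.79 ± 0.50 (adjusted p = 0.147). The difference between the tissues was 2.55 ± 0.90 (unadjusted p = 0.00596, adjusted 0.998). In mucosa 2 B6 libraries lay above all B6 adenomas. This end shares windows with another gene. A further 11 gene ends outside chromosome 5 were higher, by 0.89 to 6.47, of which 5 were called in normal mucosa and 8 in PWD.

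Losses at gene ends outside chromosome 5 were few. Osbpl8, a lipid transfer protein of the endoplasmic reticulum (5′ end, chr10:111163742-111165241), held 0.538, 0.638, 0.884, 0.467 and 0.689 CPM in B6 adenomas and 0.0807, 0.0973 and 0.179 CPM in C5, with -2.45 ± 0.49 (adjusted p = 0.00218) in adenomas and -2.57 ± 0.51 in normal mucosa. One window of it, chr10:111165001-111165250, had 0 counts in all C5 adenomas and 0.427 to 0.657 CPM in B6, at least 10.1-fold lower in C5. The other 5 were not called in normal mucosa. Fbll1, related to the RNA methyltransferase fibrillarin, held at its 3′ end (chr11:35796380-35797879) 3.94, 3.83, 5.04, 4.10 and 3.62 CPM in B6 and 2.34, 2.14 and 2.09 CPM in C5 (-0.91 ± 0.20, against -0.40 ± 0.22 in normal mucosa). The protocadherin Pcdhb1 on chromosome 18 held 2.96, 2.74, 2.61, 2.49 and 1.78 CPM in B6 and 0.928, 1.36 and 1.61 CPM in C5 (-0.99 ± 0.23, against -0.43 ± 0.26). In normal mucosa B6 held 1.35 to 1.83 CPM of it, close to the C5 adenomas. Dnajb3, a chaperone cofactor, had -0.84 ± 0.21 and -0.26 ± 0.22, and Shq1, which assembles small nucleolar RNA particles, -1.03 ± 0.26 and -0.28 ± 0.27 at its 3′ end. Named here after its values were seen, Sstr4, a somatostatin receptor, was the last of the 6, with -1.19 (adjusted p = 0.0495) and -0.25.

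A minority of the gains outside chromosome 5, 217 of 893 windows, lay close together in segments. Taking each 1-Mb stretch with at least 9 called windows, from its first to its last called window, gave 10 segments with 227 of the 1361 windows, 217 of them higher in C5 and 150 called in both tissues. Adenoma calls chose them, so their adenoma sums are a description. The series text gives the rest of the C5 genome as C57BL/6. In the segment with Anks1b and Uhrf1bp1l (chr10:89816001-89944750), the 27 called windows, 26 of them higher in C5, summed to 0.438 to 0.776 CPM in B6 adenomas and 5.53, 13 and 7.64 CPM in C5 12_3, 12_5 and 16_3. C5 normal mucosa held 7.71, 12.2 and 8.92 CPM (12_2, 12_4 and 16_2), B6 normal mucosa 0.203 to 0.430 CPM, and PWD wild type mucosa 14 to 16.8 CPM. Every C5 library of both tissues lay above every B6 library there.

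Some segments did not follow the strain label in every C5 library. In chr17:6153501-6592250, with Tulp4 and the dynein light chains Dynlt1a and Dynlt1b, 25 windows summed to 17.1 and 15.5 CPM in C5 12_3 and 12_5 but 1.10 CPM in C5 16_3, against 0.393 to 0.469 CPM in B6 adenomas. C5 normal mucosa split in the same way, with 16.7 and 17.4 CPM in 12_2 and 12_4 and 0.531 CPM in 16_2. C5 wild type mucosa did not, with 19.4, 18.0 and 13.9 CPM in 12_1, 12_11 and 16_1, and PWD held 3.71 to 3.94 CPM, nearer to B6 than to these. In chr19:28037501-28645500, with the transcription factor gene Glis3, 12 windows held 6.89 and 9.50 CPM in 12_3 and 12_5 and 0.824 CPM in 16_3, with 0.111 to 0.561 CPM in B6. C5 normal mucosa held 7.03, 6.77 and 0.531 CPM of it in 12_2, 12_4 and 16_2. C5 wild type 16_1 held 9.08 CPM and PWD 6.81 to 8.26 CPM. A stretch without a coding gene, chr9:99750001-99782250, went the other way: its 9 windows held 0 CPM in 12_3 and 12_5, 2.69 CPM in 16_3 and 5.39 to 6.95 CPM in B6. C5 normal mucosa held 7 and 1 counts there in 12_2 and 12_4, and 3.19 CPM in 16_2. There C5 wild type 16_1 held 0.0582 CPM and PWD 4.44 to 5.13 CPM, close to B6. At all 3 places C5 adenoma 16_3 and C5 normal mucosa 16_2 stood nearer to B6 than the other C5 libraries of their tissue. The C5 wild type library numbered 16 stood far from B6 at each.

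B6 libraries were also divided in the next segment. In the segment with Tcerg1l (chr7:138009501-138543250, 35 windows), B6 10_2 and 9_3A held 0 CPM, while 2_1, 4_1 and 4_2 held 5.70, 6.26 and 7.76 CPM. C5 adenomas held 22.7, 21.1 and 21.8 CPM, above all of them, and B6 normal mucosa held 0, 0 and 8.75 CPM. B6 wild type mucosa held 0, 15.7, 15.8 and 19.3 CPM, PWD 13.1 to 15.9 CPM and C5 wild type 20.5 to 23.0 CPM, so that the B6 libraries alone spanned most of this difference. In the cluster of Ugt1a genes, whose enzymes attach glucuronic acid to bilirubin and drugs (chr1:88211251-88310500, 51 windows), B6 adenomas held 32.2 to 35.3 CPM, C5 adenomas 77.1 to 79.6 CPM and PWD 84.5 to 87.6 CPM. There the libraries of each strain were close together.

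**Figure D4:**
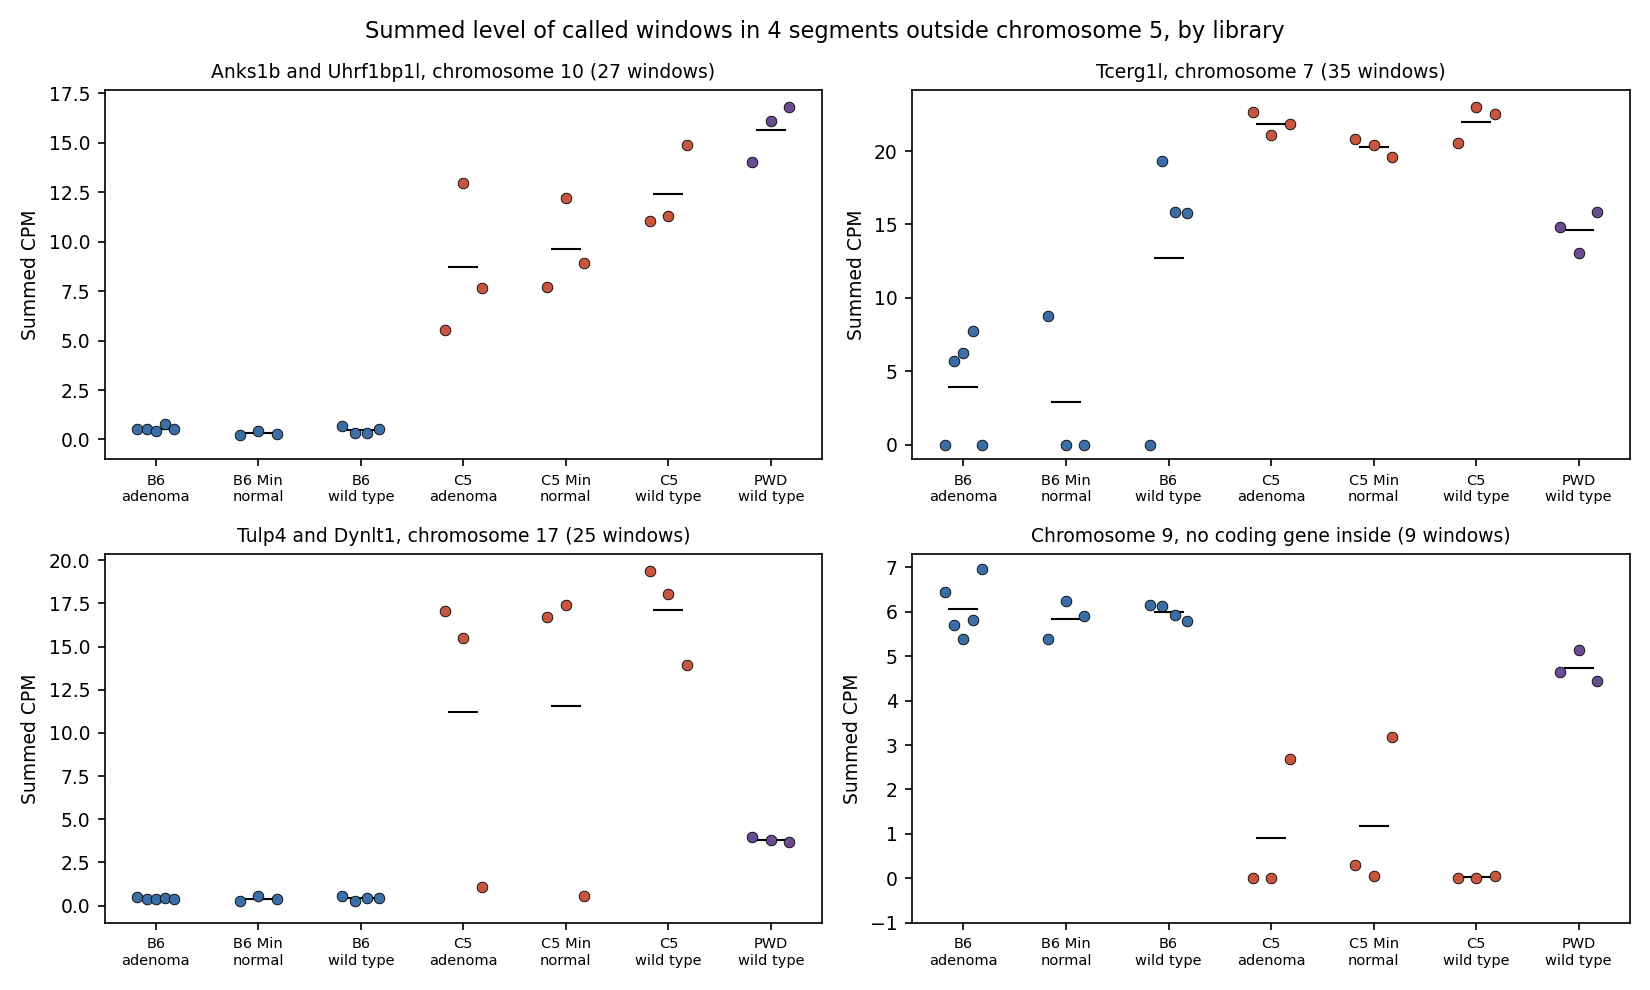
Summed CPM over the called windows of 4 segments outside chromosome 5, 1 point per library and a tick at each group mean. In the chromosome 17 segment the C5 adenomas 12_3 and 12_5 lie at 17.1 and 15.5 CPM and C5 16_3 at 1.10 CPM, near the B6 libraries.

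Outside the segments, 676 higher and 458 lower windows remained. Of the higher ones 51 (7.54%) were called in normal mucosa and 115 (17%) in PWD with the same sign, where 7.69% of all tested windows outside chromosome 5 were higher. Of the lower ones 6 (1.31%) were called in normal mucosa and 114 (24.9%) in PWD, where 13% of all tested windows there were lower. Of all tested windows outside chromosome 5, normal mucosa called 0.0594% higher and 0.00784% lower. The medians of the remaining higher and lower windows in normal mucosa were 0.69 and -0.28. The number of lower windows outside chromosome 5 fell from 468 to 107 without C5 12_5, 256 without C5 16_3, 247 without B6 4_2, 270 without B6 4_1 and 298 without B6 9_3A.

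At 3 of the lower windows named for the lowest p, the strains differed in adenomas and were not called apart in normal mucosa. At chr3:59128501-59128750, in Med12l and near P2ry14, a receptor for UDP-glucose, B6 adenomas held 0.512, 0.402, 0.788, 0.887 and 1.12 CPM and C5 adenomas 0.0877, 0.0995 and 0.110 CPM. In normal mucosa B6 held 0.203, 0.358 and 0.449 CPM and C5 0.381, 0.458 and 0.212 CPM, which overlap. The difference was -2.84 ± 0.51 (adjusted p = 0.000243) in adenomas and 0.03 in normal mucosa, and between tissues it was -2.88 ± 0.73 (unadjusted p = 0.000165, adjusted 1). At chr11:115318251-115318500, in Otop2, a proton channel, and Ush1g, B6 adenomas held 1.66, 0.804, 1.18, 1.16 and 1.51 CPM and C5 adenomas 0.482, 0.199 and 0.165 CPM. B6 normal mucosa held 0.163 to 0.251 CPM and C5 normal mucosa 0 to 0.204 CPM, so B6 adenomas stood above all other libraries of this set. Its adenoma difference was -2.11 ± 0.37 (adjusted p = 0.000173), that in normal mucosa -0.85 (0.883), and the difference between tissues had an unadjusted p of 0.15. In the sialyltransferase gene St6galnac5, chr3:152864251-152864500 held 0.981 to 1.39 CPM in B6 adenomas and 0.263, 0.348 and 0.220 CPM in C5 (-2.07, adjusted p = 0.000244), against -0.69 in normal mucosa.

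Measured by the difference between tissues itself, the lowest unadjusted p of a positive value was 1.71e-05, at chr19:60385001-60385250, where C5 was higher by 1.72 in adenomas (adjusted p = 0.0297) and lower by -1.08 in normal mucosa. The lowest for a negative value was 2.24e-05, at chr13:63200751-63201000 in Aopep, an aminopeptidase gene. At chr7:24118751-24119000 in Zfp112, a zinc finger gene, the adenoma difference was -2.78 (adjusted p = 0.00172) and that in normal mucosa 0.50. All adjusted p for these differences between tissues were 1 when rounded. Among gene ends the lowest unadjusted p were at Mfap1b, a splicing factor gene (2.42 ± 0.66, unadjusted edgeR p 0.000478), and Khdrbs2, which encodes an RNA-binding protein (-3.10 ± 0.92, 0.00127). Neither was called, with adjusted p of 0.998.

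Of the 3 C5 adenomas, 2 captured less DNA from CpG-dense windows than any B6 adenoma, and all captured more from CpG-sparse ones. Windows with a score of 10 or more took 6.96%, 5.70% and 4.18% of the counts in C5 12_3, 12_5 and 16_3 and 6.68% to 7.23% in B6 adenomas. The means were 5.61 ± 1.39% (n = 3) and 6.90 ± 0.216% (n = 5), a difference of -1.29 points with an exact two-sided permutation p of 0.0893. C5 12_3 lay within the B6 range, and without it the difference was -1.96 (exact permutation p = 0.0476). Without C5 16_3 it was -0.571 (exact permutation p = 0.238), so that much of it rested on that library. Windows with a score under 2 took 23.8%, 24.3% and 27.6% in C5 and 19.2% to 23.4% in B6, which do not overlap (25.2 ± 2.09% against 21.6 ± 1.84%, exact two-sided permutation p = 0.0357, and 0.0286 to 0.0952 leaving out each library in turn). Other libraries with the label number 16 were also low in dense windows, with 4.06% in C5 normal mucosa 16_2, 4.43% in C5 wild type 16_1 and 4.24% in B6 wild type 16_8.

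Outside chromosome 5 both gains and losses in adenomas were most frequent in the densest windows. At a score of 15 or more 0.267% were called higher and 0.658% lower in adenomas, while in normal mucosa these shares were 0.360% and 0.0103%. At a score under 2, 0.217% were higher and 0.0489% lower in adenomas. How far the capture of CpG-dense DNA enters the calls outside chromosome 5 was not tested. Without the 11 libraries numbered 16 in any group, 1837 windows were called there in adenomas, 914 higher and 923 lower.

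**Figure D5:**
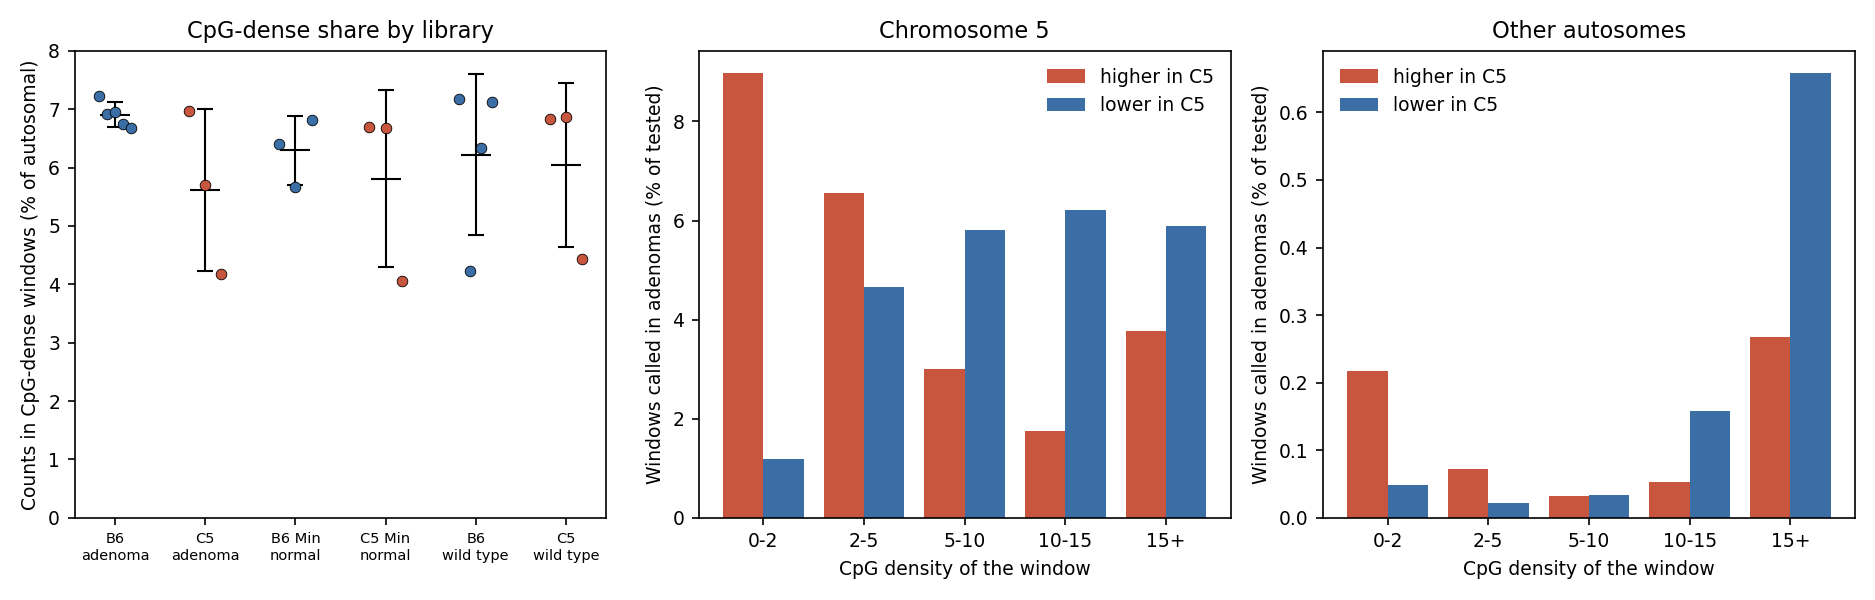
Left, share of counts in windows with a CpG density score of 10 or more in each library, with the mean ± SD. Right, percent of tested windows called higher or lower in C5 adenomas by class of CpG density, on chromosome 5 and elsewhere. C5 16_3 has the lowest share among adenomas, 4.18%, and losses outside chromosome 5 are most frequent at a score of 15 or more, 0.658%.

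Gene ends of intestinal and cancer pathways were mostly not called. Of 22 chromosome 5 genes of intestinal and metabolic function, 3 were higher (Slc2a9, and Mmab and Mvk, which share windows) and 1 lower (Abcb4), where 6.25% of all tested ends of the chromosome were called. Of 20 myeloid marker genes, 8 lay above 0 (median -0.0093), and only Cx3cr1, the receptor for fractalkine, was called. It was higher by 1.32 (adjusted p = 0.0348), with 0.25 in normal mucosa and -0.11 at its other end. Its call was lost without B6 2_1, 4_1, 4_2 or 9_3A or C5 12_5 or 16_3. In the other 19 lists edgeR called none. On chromosome 5 these were 2 EGF family ligands, 5 receptor kinases, 4 Wnt genes, 13 transcription factors, 9 chemokines and 5 repair and tumour suppressor genes. Genome-wide they were 47 genes methylated in colorectal cancer, 20 Wnt antagonists, 13 Wnt targets and stem cell genes, 31 imprinted genes, 36 germline genes, 12 DNA methylation enzymes and 5 housekeeping genes. The marker lists without a call held 20 enterocyte, 16 secretory, 20 T cell, 16 B cell, 16 stromal and 12 endothelial genes. Of the germline genes, which are normally silenced by promoter methylation in somatic cells, 4 of 36 lay above 0 with a median of -0.28, and 9 had an unadjusted p under 0.05, while the median in normal mucosa was -0.019. All tested windows outside chromosome 5 had medians of -0.20 at a score of 10 to 15 and -0.30 above it, and the part of CpG density in the germline value was not tested. Of the endothelial markers 2 of 12 lay above 0 (median -0.22, and 0.061 in normal mucosa). Of the chromosome 5 repair and tumour suppressor genes 3 of 5 had an unadjusted p under 0.05 (median -0.68, and -0.093 in normal mucosa), as had 194 of all 720 tested ends of that chromosome. Over all 12582 gene ends, 6446 lay above 0, with a median of 0.0096, and 1018 had an unadjusted p under 0.05. The end of Apc itself, whose Min allele all these mice carried, had -0.27 (adjusted p = 0.832).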

How the data were processed

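MeDIP counts in 250 bp windows of mm10 came from the table the authors deposited, in which, per the file headers, each column is a library. The reads were aligned with BWA, per the submitters' processing notes. Its settings, any read filter and the counting step were not given in the sources used here. The table also holds the authors' CpG density score, whose scale is not given there. Members, gene lists and tests were chosen with earlier results of these data known.

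X and Y were left out. Windows and gene ends were tested with edgeR 4.0.16 (R 4.3.3): filterByExpr with a minimum count of 10, TMM, and 1 quasi-likelihood fit over 46 libraries in 15 groups, with Benjamini-Hochberg adjustment over all features tested at 0.05. Library values were compared by exact permutation tests. Tests were checked on simulated data. Gene positions came from the RefSeq GRCm38.p6 table, and 62 of 68 called genes had a promoter sequence. Named windows and gene ends were those with the lowest p by chromosome class and direction, and list members by call; 1 named window and its segment are not reported here. With no strand fixed for every gene, the CpG-richer end was used, which was the 5′ end in 12943 of 16457 genes with strand, and 3174 gene ends share windows. In choosing it, windows without a CpG score (420407 of the 10535096 deposited) counted as 0. The input column was not used. Intervals and floors cover counting error only. DESeq2 1.42.0, other filters, ends, window sizes and left-out libraries were alternatives.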

Additional observations from a re-analysis of the deposited data

Results flagged for a closer look

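Of 110 values checked over the 5 B6 adenomas, 7 had 1 library far from the others by Dixon's test (critical value 0.71), and chance alone flags about 1 in 20. B6 4_1 stood apart at the Zfp68 window chr5:138610251-138610500, with 0.0438 CPM where the other 4 had 0, and at the Osbpl8 window chr10:111165001-111165250, with 0.657 CPM against 0.427 to 0.469 CPM. The Zfp68 value was 1 count. With the other 4 libraries at 0 this test flags any count, so that flag carries no weight. B6 4_2 stood apart at the Zfp112 window chr7:24118751-24119000, with 0.610 CPM against 0.438 to 0.469 CPM, and at the Nfs1 end, with 0.363 CPM against 0 to 0.0638 CPM. B6 2_1 stood apart at the ends of Gata4 (0.638 CPM against 0.259 to 0.359) and Tex15 (2.23 CPM against 1.24 to 1.43). B6 9_3A held 0.561 CPM in the chromosome 19 segment with Glis3, against 0.111 to 0.219 CPM. Counts were also few at the Nfs1 end and in this segment, at 8 and 23 over all B6 adenomas. At all but Gata4 and Tex15, which were not called, the C5 adenomas were on the same side of every B6 library.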

How the results depend on the processing

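The difference between tissues was called at 0 windows and 0 gene ends under every setting run, and the position of chromosome 5 differed by 82.1 to 83.4 percentage points leaving out each library in turn. No paired analysis was possible because no C5 and B6 libraries of adenomas or Apc Min normal mucosa share a label number; the first number, which adenomas and normal mucosa of a strain share, entered as the term below.

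In the order adenomas, normal mucosa and both, calls were 3737, 2620 and 1990 windows on chromosome 5 and 802, 339 and 98 elsewhere with only the 14 libraries of these groups, where fewer samples estimate the spread. With a term for the first label number they were 284, 174 and 122, and 11, 15 and 2, with gene ends at 4, 0 and 0 and 1, 0 and 0. With a minimum count of 20, which tests fewer windows, they were 2626, 2060 and 1644, and 644, 282 and 93, with 29 and 15 gene ends in adenomas and 12 in both on chromosome 5. Windows of 1000 bp gave 2083 in both on chromosome 5. DESeq2 called 21 and 15 gene ends in adenomas, all among the edgeR calls, 13 in normal mucosa and 9 in both on chromosome 5. Without the 11 libraries numbered 16, chosen after seeing the data, normal mucosa had 1790 windows and 22 gene ends outside chromosome 5. The 5′ end by strand, also added later, gave 28 adenoma calls on chromosome 5, and 2000 bp regions 32 in normal mucosa. The other end of each gene gave 32 in normal mucosa on chromosome 5, and elsewhere 15 in adenomas, 2 in normal mucosa and 0 in both. The cause of these changes was not tested.

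At the other end, signs reversed for Oas1h (-0.078), Rnf212 (0.68), Trrap (1.13, called), Thegl (0.43), Tmem233 (0.34), Rpl21 (1.42), Nfs1 (-0.38), Fbll1 (0.10), Pcdhb1 (0.020), Dnajb3 (0.17), Shq1 (0.20) and Cx3cr1 (-0.11). At the 5′ end they did for Trrap (1.10), Fbll1 (0.069) and Shq1 (0.17), and with 2000 bp for Cx3cr1 (-0.10). Most named calls were lost with the label factor, such as that of Mvk (7.58, adjusted p = 0.071). The call of Mmab, which shares windows with Mvk, was kept (11.5, edgeR adjusted p = 0.0163).

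Leaving out each library in turn gave 3840 to 6308 adenoma windows on chromosome 5 and 567 to 1599 elsewhere, 2481 to 4423 and 224 to 734 in normal mucosa, and 2073 to 2961 and 115 to 198 in both. Gene ends ran from 22 to 46 and 12 to 32 in adenomas, 13 to 22 and 7 to 16 in normal mucosa, and 10 to 19 and 7 to 12 in both. The position outside chromosome 5 differed by 3.22 to 4.96 points, the dense share by -1.96 to -0.571, the sparse share by 2.47 to 4.39 and the chromosome 5 share by -0.174 to -0.0405. C5 normal mucosa 12_2 and 12_4 differed by no more than counting error over all windows (chi-square 0.929 per window). In 4 segments they did differ by exact binomial tests (182 against 240 counts in the chromosome 10 segment, adjusted p = 8.16e-06). Among B6 adenomas, 4_1 and 4_2 (0.956), 2_1 and 4_2 (0.962) and 2_1 and 4_1 (1.02) were also close to counting error per window. Over longer bins these B6 pairs gave 1.16, 1.07 and 1.40 per bin. Whether such libraries came from separate mice is not known, and all were kept as separate samples. At 15023537 counts in the shallowest adenoma library, windows near 0 in both groups could not be compared.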
